A study of Homo sapiens
Mus musculus with 2 samples.

Results

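The 10 genes described here are Wnt targets and genes of the stem cells at the base of the intestinal crypt: Lgr5, Ascl2, Axin2, Smoc2, Lrig1, Ephb2, Ephb3, Sox9, Cd44 and Myc. They were chosen by name, and all 10 were found among the 25504 mouse genes of the tables. The material was colonic epithelium of a single untreated wild-type C57Bl6 mouse, dissociated with EDTA and collagenase, enriched for viable cells and mixed with cells of the human leukaemia line K562. Barcoded single-cell libraries were made by inDrop, a droplet method, with CEL-Seq amplification, which counts transcripts by unique molecular identifiers (UMIs). The study has no treatment group: its 2 libraries, replicate 1 and replicate 2, hold different cells of the same mouse sequenced together. Every comparison is therefore between barcode classes within the same 2 libraries. Each p-value covers only counting error and a spread between these libraries that is estimated mainly over all genes together and may be technical.

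At the crypt base, Wnt ligands hold beta-catenin stable so that TCF factors can switch on target genes, and R-spondins amplify the signal through LGR receptors. LGR5 marks the dividing stem cells, and their daughters lose Wnt signalling as they move up to become absorptive colonocytes or mucus-secreting goblet cells. In the colon, REG4-positive deep crypt secretory cells sit between the stem cells, as Paneth cells do in the small intestine.

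Replicate 1 held 1738 barcodes and 8602490 UMIs, and replicate 2 held 664 barcodes and 3951918 UMIs, with medians of 4615.5 and 4756.5 UMIs per barcode. No barcode of replicate 1 had counts identical over all genes to those of a barcode of replicate 2, and barcode sequences were not compared. After the 5% of barcodes with the highest doublet scores were removed, 2282 barcodes were grouped into 11 clusters with 12729 genes that excluded all 10 members. From fixed markers, 275 barcodes were called crypt progenitor-like (208 in replicate 1 and 67 in replicate 2), 125 cycling-like (87 and 38), 346 deep crypt secretory-like (267 and 79), 340 goblet-like (269 and 71) and 497 colonocyte-like (380 and 117). A further 56 were T cell-like and 13 tuft-like, and 630 barcodes with a median of 1682 UMIs stayed unnamed. The cycling-like class also carried deep crypt secretory markers, with a summed level of 4183 CPM in replicate 1 (UMIs out of each 1000000 UMIs of the class) and 10252 in replicate 2, against 1311 and 1377 in the progenitor-like class. They summed to 19735.5 and 16733 in deep crypt secretory-like and to 13910 and 12701 in goblet-like barcodes, so those 2 classes shared them. Goblet markers summed to 40157 and 35604.5 in deep crypt secretory-like and to 187404 and 160874 in goblet-like barcodes. Goblet markers in the cycling-like class summed to 8082 and 14862 CPM, against 8447 and 7082 in the T cell-like barcodes. The part of these secretory markers in the cycling-like levels was not tested. Progenitor markers summed to 2131 and 1559 CPM in the progenitor-like class and to 2869 and 2093 in the cycling-like class, which was thus higher in both libraries. The progenitor-like class also carried colonocyte markers, at 6662 and 6415 CPM, against 2724 and 2210 in the cycling-like class. In deep crypt secretory-like barcodes they summed to 1980 and 1865, and in colonocyte-like barcodes to 36783 and 32119. Their part in the progenitor-like levels was not tested. T cell markers summed to at most 153 CPM in the 5 epithelial classes, against 30669 and 16378 in the T cell-like barcodes. In replicate 2, the progenitor-like class held 494 UMIs of the mast cell protease gene Mcpt1, all in 1 barcode.

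All 10 genes were sparse. In the barcodes kept, Ascl2 had 49 UMIs, Lgr5 had 99, Axin2 207, Ephb3 273, Lrig1 318, Smoc2 370, Myc 425, Cd44 481, Ephb2 674 and Sox9 1213. The 3 crypt classes together held 14.3%, 8.12% and 18.0% of all UMIs (progenitor-like, cycling-like and deep crypt secretory-like), yet most UMIs of every member. Ascl2 had 36.7% of its UMIs in the progenitor-like and 32.7% in the cycling-like class, and 4.08% in the deep crypt secretory-like class. Sox9 had the reverse weighting, with 44.3% of its UMIs in the deep crypt secretory-like class. Lgr5 had the largest share of the 10 in colonocyte-like barcodes, 14.1%, and as much in goblet-like barcodes.

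**Figure D1:**
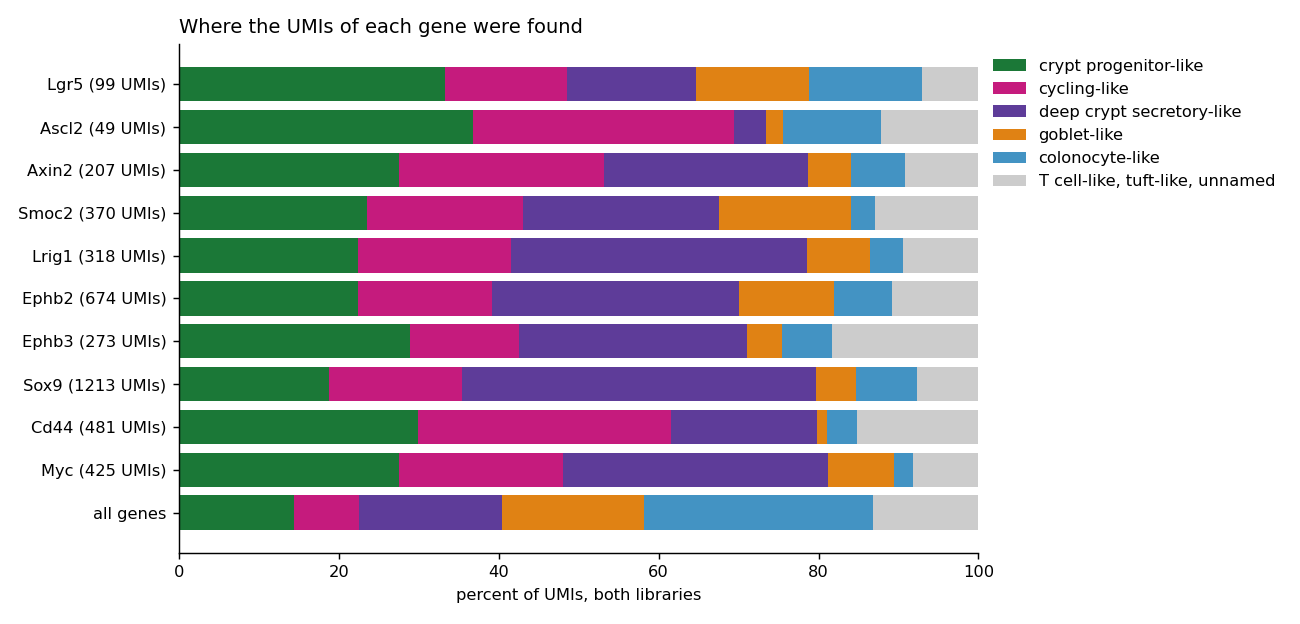
Percent of the UMIs of each gene found in each barcode class, both libraries together, with the UMIs of all genes as the last bar. Grey stands for T cell-like, tuft-like and unnamed barcodes. Cd44 has 1.25% of its UMIs in goblet-like barcodes, which hold 17.8% of all UMIs.

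Most of the 10 genes were higher in the progenitor-like, cycling-like and deep crypt secretory-like classes alike than in goblet-like or colonocyte-like barcodes. Against colonocyte-like barcodes, 10 of 10 members were higher in the progenitor-like class, where 13.6% of the 7941 genes tested were called higher (edgeR's quasi-likelihood test on UMI sums per class and library, library as a block, Benjamini-Hochberg adjusted p under 0.05). In the cycling-like class 9 of 10 were higher, against 16.8% of genes, and in the deep crypt secretory-like class 8 of 10, against 19.3%. Against goblet-like barcodes, 8 of 10 were higher in the progenitor-like class (9.44% of genes), 8 of 10 in the cycling-like class (10.5%) and 7 of 10 in the deep crypt secretory-like class (6.4%). No member was called lower in any of these 6 comparisons. The median log2 fold change of the members lay between 1.68 and 2.89 over the 6, and that of all genes between -0.10 and 0.05. The comparisons share their goblet-like and colonocyte-like sums, so their counts are not separate evidence. Without a scaling for composition (library totals only), the median of all genes moved by up to 0.57 towards the crypt classes, and no called member changed direction under it.

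**Figure D2:**
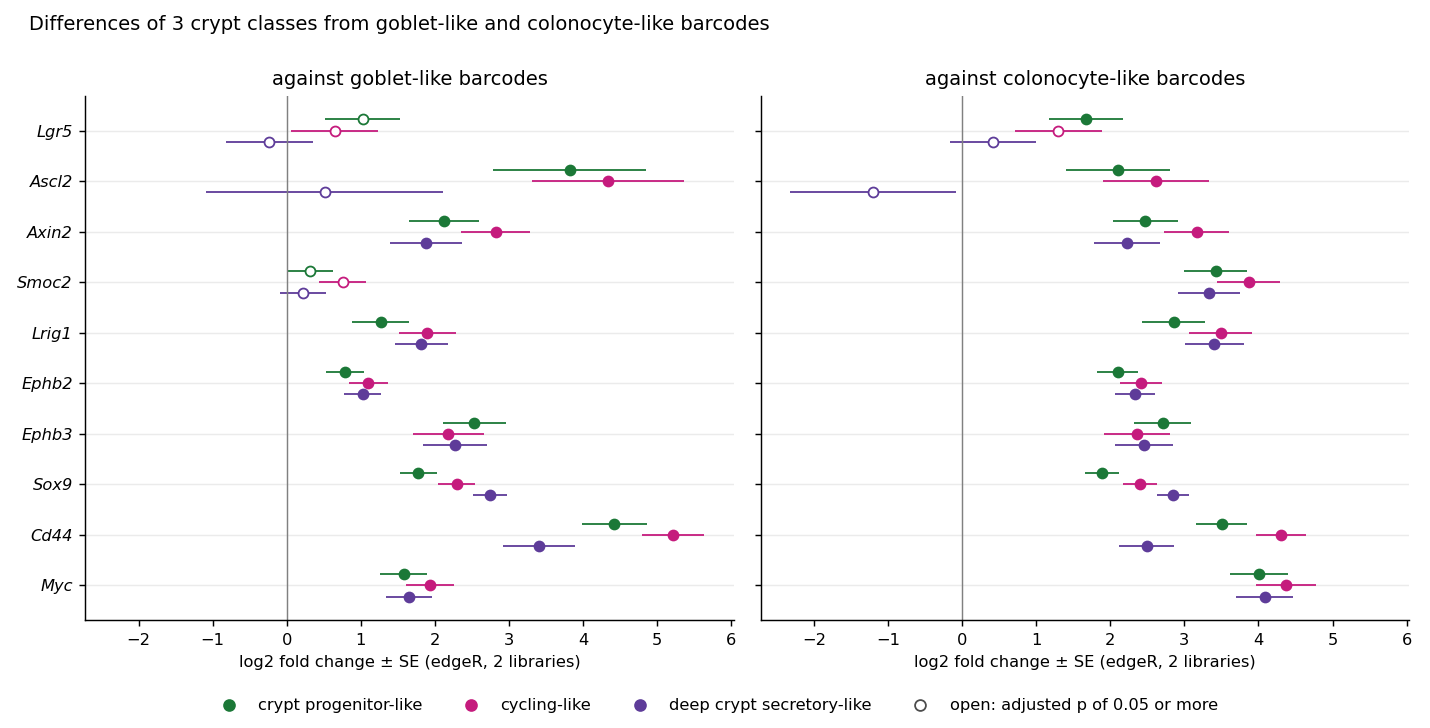
Log2 fold change (edgeR, error bars ± SE) of each gene in the 3 crypt classes against goblet-like barcodes (left) and colonocyte-like barcodes (right), from 2 libraries. Filled points have an adjusted p under 0.05. Cd44 lies farthest from 0 against goblet-like barcodes, and Smoc2 has open points there and filled points against colonocyte-like barcodes.

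Levels are given below in CPM, replicate 1 before replicate 2. Since the method counts transcript ends, levels were not divided by gene length, and they are compared between classes and not between genes. They lack the scaling for composition that the fit applies, and statements on overlap between classes refer to these unscaled levels.

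Lgr5, the R-spondin receptor, was at 23.3 and 13.4 in the progenitor-like class (26 and 7 UMIs) and at 15.2 and 17.9 in the cycling-like class (9 and 6 UMIs). It was at 8.84 and 5.14 in deep crypt secretory-like, 6.05 and 9.23 in goblet-like and 2.98 and 7.63 in colonocyte-like barcodes, on 3 to 13 UMIs per library. The progenitor-like and cycling-like values lay above all values of the other 3 classes, which overlapped each other. The progenitor-like class exceeded colonocyte-like barcodes by 1.68 ± 0.50 on the log2 scale (SE, adjusted p = 0.00514 by edgeR), but replicate 2 alone gave 0.45 and the call was lost when all sums were thinned to equal depth (adjusted p = 0.137) or tested with DESeq2 (adjusted p = 0.166). Against goblet-like barcodes the difference was 1.03 ± 0.51 (adjusted p = 0.152 by edgeR). The 33 UMIs of the progenitor-like class against 14 of the goblet-like class gave an unscaled ratio of 2.92. Its 95% interval of 1.52 to 5.90 covers counting error only. Lgr5 UMIs were found in 8.73% of progenitor-like, 8.80% of cycling-like, 4.62% of deep crypt secretory-like, 3.82% of goblet-like and 2.82% of colonocyte-like barcodes. With each barcode thinned to 2000 UMIs, these shares were 4.38%, 3.23%, 1.84%, 2.30% and 0.419%. They rested on 11, 4, 6, 7 and 2 barcodes. In replicate 1, Lgr5 was then found in 9 of 187 progenitor-like, 1 of 86 cycling-like and 4 of 240 goblet-like barcodes. In replicate 2 it was found in 2 of 64, 3 of 38 and 3 of 64, so the order of these classes differed between the libraries. No Lgr5 UMI was found in the 56 T cell-like barcodes, which allows a share of up to 5.36% at their median depth of 1672 UMIs, against 5480 in the progenitor-like class.

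Ascl2, a basic helix-loop-helix factor of the stem cell programme, had the largest log2 difference of the members between progenitor-like and deep crypt secretory-like barcodes (3.31 ± 0.88). Progenitor-like barcodes held 12 and 6 UMIs (10.7 and 11.5 CPM) and cycling-like barcodes 14 and 2 (23.7 and 5.96). Deep crypt secretory-like barcodes held 2 UMIs in replicate 1 and 0 in replicate 2, goblet-like barcodes 1 and 0, and colonocyte-like barcodes 5 and 1. A count of 0 in the 79 deep crypt secretory-like barcodes of replicate 2 allows a share of up to 3.80%. Over both libraries, 18 UMIs in the progenitor-like class against 2 in the deep crypt secretory-like class gave an unscaled ratio of 11.3 (95% counting interval 2.70 to 100.2). The fit, which scales for composition, gave a fold of 9.88 (adjusted p = 0.00379 by edgeR). That call was lost when the sums were thinned to equal depth (adjusted p = 0.151). The unscaled ratio of progenitor-like to colonocyte-like barcodes was 5.98 (2.27 to 18.4). The fit gave a fold of 4.30 (adjusted p = 0.0151 by edgeR), and this call was lost by thinning (adjusted p = 0.301) and without the library block (adjusted p = 0.0537).

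Of the 10 members, Ascl2 and Lgr5 had the smallest shares of their UMIs in the deep crypt secretory-like class (4.08% and 16.2%). Of all genes tested, 13.6% were higher and 15.5% lower in progenitor-like than in colonocyte-like barcodes. Among 22 further crypt-base genes (19 tested), 7 were higher and 1 was lower in that comparison, and 11 were higher and 1 lower under library totals only. The largest of these were Slc12a2, a chloride cotransporter (4.34 ± 0.22), Hopx, a homeodomain protein (2.81 ± 0.32), and Cdk6, a G1 kinase (2.70 ± 0.38), while Prom1 fell by 0.91 ± 0.19. The progenitor-like class exceeded the deep crypt secretory-like class in 4 and was below it in 3, where 5.72% of all genes were called higher and 7.08% lower. Aqp4, a water channel, stood at 1669.7 and 1700.4 CPM in progenitor-like against 70.1 and 97.6 in deep crypt secretory-like barcodes (4.37 ± 0.20 on the log2 scale). Kcnq1, a potassium channel, was also higher there (2.60 ± 0.37), while Cd24a, a surface glycoprotein, was lower (-1.75 ± 0.16).

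Axin2, a scaffold of the complex that degrades beta-catenin and a feedback target of the pathway, was at 43.0 and 17.2 CPM in progenitor-like, 55.8 and 59.6 in cycling-like and 23.1 and 32.5 in deep crypt secretory-like barcodes. Goblet-like barcodes had 4.71 and 7.38 and colonocyte-like barcodes 4.68 and 3.27, so neither library of these classes reached the lowest crypt value. Against goblet-like barcodes it was higher by 2.13 ± 0.47 in progenitor-like, 2.82 ± 0.47 in cycling-like and 1.88 ± 0.48 in deep crypt secretory-like barcodes on the log2 scale (adjusted p = 0.000176, 2.94e-07 and 0.0021 by edgeR). In the progenitor-like class, replicate 2 alone gave 0.84. The deep crypt secretory-like call was lost when the sums were thinned (adjusted p = 0.125).

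Other feedback genes and targets moved in both directions. Of 17 listed, 13 were tested, and 2 were higher and 2 lower in progenitor-like than in colonocyte-like barcodes, with a list median of 0.02. Of all genes tested, 13.6% were higher and 15.5% lower in that comparison. Ccnd1 (cyclin D1) was higher by 1.98 ± 0.21 and Bambi, a decoy receptor for TGF-beta family ligands, by 2.31 ± 0.61. Dkk3 fell by 2.49 ± 0.70 and Ppard by 0.77 ± 0.25, and under library totals only 3 were higher and 1 lower, without the Ppard call. Against goblet-like barcodes Nkd1, an inhibitor of Dishevelled, was higher by 1.09 ± 0.33, and Tnfrsf19 was lower (-2.92 ± 0.57).

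Among 35 receptors and signal components (33 tested), 3 were higher and 5 lower in the progenitor-like than in the colonocyte-like class, shares near those of all genes. Tcf7l1, a mostly repressive TCF factor, was higher by 1.20 ± 0.25, while Tcf7l2, the main TCF of intestinal epithelium, was lower (-1.73 ± 0.17). Fzd2, a Frizzled receptor with 62 UMIs in all, was higher by 2.61 ± 0.82, and the Wnt co-receptor Ryk by 1.00 ± 0.23. Ctnnb1, which encodes beta-catenin itself, was lower by log2 fold change (-1.19 ± 0.15), as was the co-receptor Lrp6 (-1.02 ± 0.20). Lgr4, a relative of Lgr5 that also binds R-spondins, was at 229 and 251 CPM in progenitor-like and 91.2 and 70.2 in deep crypt secretory-like barcodes, a difference of 1.48 ± 0.20. Lgr4 was also at 281 and 209 in colonocyte-like barcodes, so it did not share the distribution of the members. These directions held under library totals only, where 9 were called higher and 3 lower.

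Smoc2, a secreted calcium-binding matrix protein, was higher in all 3 crypt classes than in colonocyte-like barcodes, and its differences from goblet-like barcodes did not pass the test. It was at 60.0 and 38.3 CPM in progenitor-like, 96.4 and 44.7 in cycling-like and 39.5 and 56.5 in deep crypt secretory-like barcodes. Goblet-like barcodes had 28.9 and 33.2, just below the lowest crypt value, and colonocyte-like barcodes 2.55 and 5.45. Against colonocyte-like barcodes it was higher by 3.42 ± 0.42, 3.87 ± 0.43 and 3.33 ± 0.42 in the 3 crypt classes (adjusted p = 9.58e-12, 3.96e-14 and 1.66e-11 by edgeR). Against goblet-like barcodes the differences of 0.31 ± 0.31, 0.76 ± 0.32 and 0.22 ± 0.31 did not pass the test (adjusted p = 0.57, 0.0717 and 0.761 by edgeR). Pooled over the libraries, the ratios to goblet-like barcodes were 1.77 (95% counting interval 1.26 to 2.49), 2.58 (1.81 to 3.70) and 1.47 (1.05 to 2.07), without the scaling for composition that the fit applies. The cycling-like difference passed under 6 of the alternatives, among them library totals only (1.05, adjusted p = 0.0076), but replicate 1 alone gave 1.21 and replicate 2 alone -0.07. With the scaling, replicate 1 alone gave 0.60 and replicate 2 alone -0.16 for the progenitor-like class. For the deep crypt secretory-like class they gave 0.05 and 0.42. The order seen in the unscaled levels thus did not hold throughout. Leaving out barcodes with over 20% mitochondrial UMIs, which also redrew the classes, raised the progenitor-like difference to 0.93 (adjusted p = 0.0176).

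Lrig1, a transmembrane protein that restrains ErbB receptors and marks stem and progenitor cells, differed between the libraries in the progenitor-like class, with 55.5 in replicate 1 and 17.2 in replicate 2. It was at 59.2 and 77.5 in cycling-like, 61.2 and 48.0 in deep crypt secretory-like, 12.1 and 12.9 in goblet-like and 3.41 and 5.45 in colonocyte-like barcodes. The deep crypt secretory-like class was higher than goblet-like barcodes by 1.82 ± 0.36 and than colonocyte-like barcodes by 3.40 ± 0.40 (adjusted p = 3.25e-05 and 6.13e-13 by edgeR). The progenitor-like excess over goblet-like barcodes of 1.27 ± 0.38 (adjusted p = 0.00833 by edgeR) rested on replicate 1. Replicate 2 alone gave 0.05, and the call was lost without the library block (adjusted p = 0.0704), after thinning (adjusted p = 0.22) and with DESeq2 (adjusted p = 0.138). Of 6 relatives, Lrig3 was higher in the deep crypt secretory-like than in the goblet-like class by 1.10 ± 0.27. Erbb2 and Errfi1, a feedback inhibitor of the same receptors, were lower there (-1.31 ± 0.28 and -1.22 ± 0.23).

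**Figure D3:**
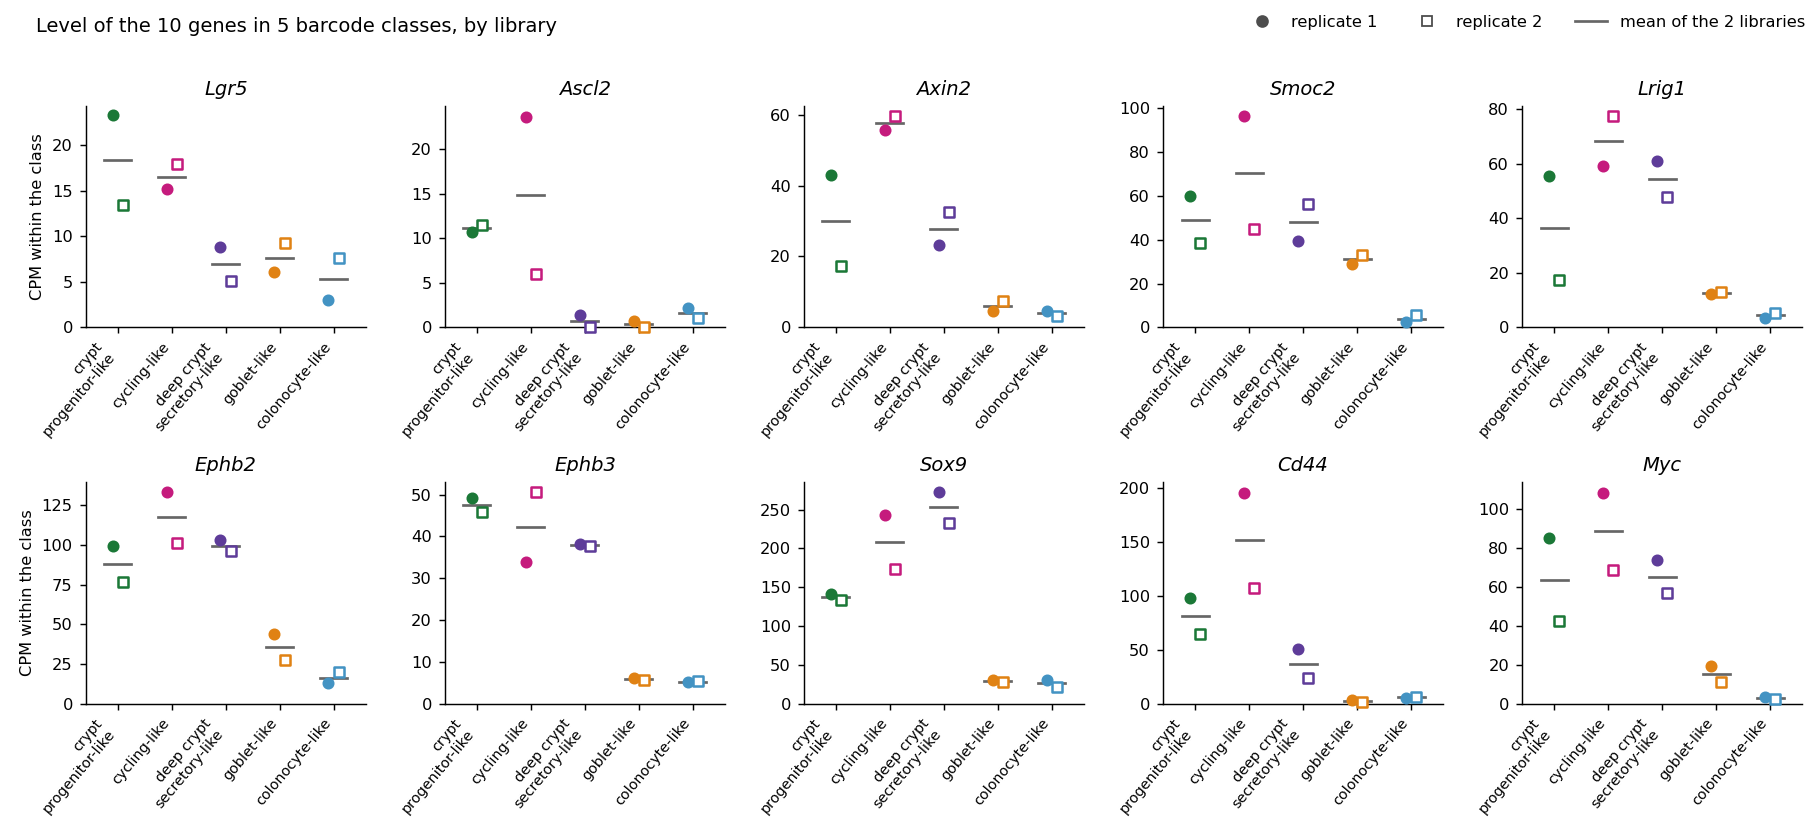
CPM within the class (linear axes that start at 0 and differ between panels) for each gene in 5 classes. Circles are replicate 1, squares replicate 2 and bars the mean of both. Sox9 is highest in deep crypt secretory-like barcodes, at 273 and 233, and Lrig1 differs between the libraries in the progenitor-like class, at 55.5 and 17.2.

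The receptors Ephb2 and Ephb3 position cells along the crypt by repulsion from ephrin-B ligands. Ephb2 was at 99.4 and 76.6 CPM in progenitor-like, 134 and 101 in cycling-like and 103 and 95.9 in deep crypt secretory-like barcodes. It was lower in both differentiated classes, with 43.7 and 27.7 in goblet-like and 13.2 and 19.6 in colonocyte-like barcodes. Ephb3 was at 49.3 and 46.0, 33.8 and 50.7, and 38.1 and 37.7 in the same 3 crypt classes. It was at 6.05 and 5.54 in goblet-like and 5.11 and 5.45 in colonocyte-like barcodes, on 3 to 12 UMIs per library. The deep crypt secretory-like class exceeded goblet-like barcodes by 1.02 ± 0.25 for Ephb2 and 2.27 ± 0.43 for Ephb3 (adjusted p = 0.0011 and 1.27e-05 by edgeR). Without the library block, the Ephb2 calls against goblet-like barcodes were lost in the progenitor-like (adjusted p = 0.139) and deep crypt secretory-like class (adjusted p = 0.0592) but not in the cycling-like class, and for the progenitor-like class the call was lost also with DESeq2 (adjusted p = 0.0798).

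Efnb2, which encodes an ephrin-B ligand, had the opposite distribution. It was at 40.3 and 40.2 CPM in progenitor-like, 13.5 and 2.98 in cycling-like and 19.0 and 17.1 in deep crypt secretory-like barcodes, against 78.7 and 64.6 in goblet-like and 126 and 71.9 in colonocyte-like barcodes. The crypt classes did not overlap the other 2, and the log2 differences from colonocyte-like barcodes were -1.83 ± 0.25, -3.98 ± 0.38 and -2.89 ± 0.28 (adjusted p = 6.80e-10, 1.52e-17 and 2.23e-17 by edgeR). Efnb1, another ephrin-B ligand gene, did not share this distribution throughout. In the deep crypt secretory-like class it was lower than in the goblet-like class by log2 fold change (-1.05 ± 0.21). In progenitor-like barcodes it was at 153 and 144 CPM, above the 122 and 120 of goblet-like barcodes. Colonocyte-like barcodes had 188 and 154, and the call between progenitor-like and colonocyte-like barcodes was lost under library totals only. Of the 15 ephrins and further Eph receptors listed, 13 were tested, and 3 were higher and 5 lower in progenitor-like than in colonocyte-like barcodes. Of all genes tested, 13.6% were higher and 15.5% lower in that comparison. Ephb4, Epha7 and Epha4 were the 3 higher receptors (2.59 ± 0.44, 2.42 ± 0.45 and 1.04 ± 0.39). Efna1 and Epha2 were lower (-1.93 ± 0.28 and -1.93 ± 0.42).

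Sox9, an HMG-box factor of crypt-base and secretory cells, was at 273 and 233 CPM in deep crypt secretory-like barcodes. It was at 243 and 173 in cycling-like, 142 and 134 in progenitor-like, 30.9 and 27.7 in goblet-like and 30.7 and 21.8 in colonocyte-like barcodes. The deep crypt secretory-like class exceeded goblet-like barcodes by 2.74 ± 0.23 and colonocyte-like barcodes by 2.85 ± 0.21 (adjusted p = 9.34e-20 and 7.16e-24 by edgeR). It overlapped the cycling-like class and did not overlap the progenitor-like class, which was lower (-0.96 ± 0.19, adjusted p = 3.21e-05 by edgeR). That last difference turned to 0.18 with finer clusters, as described below, and was not called without the library block (adjusted p = 0.0608). Sox4, a related factor in a list of 14 transcription factors (11 tested), was higher than in goblet-like barcodes by 3.56 ± 0.47 in the deep crypt secretory-like class and by 4.33 ± 0.43 in the progenitor-like class. Id1 and Id3, inhibitors of basic helix-loop-helix factors, were lower in the deep crypt secretory-like than in the goblet-like class (-3.01 ± 0.17 and -2.67 ± 0.19).

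Cd44, a hyaluronan receptor, had the largest differences of the members from goblet-like barcodes. It was at 98.5 and 65.1 CPM in progenitor-like, 196 and 107 in cycling-like and 50.3 and 24.0 in deep crypt secretory-like barcodes. In goblet-like barcodes it was at 3.36 and 1.85 (5 and 1 UMIs), and in colonocyte-like barcodes at 5.11 and 6.54. The 3 crypt classes did not overlap each other, and the deep crypt secretory-like class was lowest of them. Against goblet-like barcodes the log2 differences were 4.42 ± 0.44 in progenitor-like, 5.22 ± 0.42 in cycling-like and 3.41 ± 0.48 in deep crypt secretory-like barcodes (adjusted p = 7.17e-16, 2.03e-21 and 5.74e-09 by edgeR). The progenitor-like class exceeded the deep crypt secretory-like class by 1.01 ± 0.27 (adjusted p = 0.00304 by edgeR), a call lost without the library block (adjusted p = 0.111). Against colonocyte-like barcodes, replicate 2 alone gave 1.52 for the deep crypt secretory-like class, against 2.49 ± 0.38 in the fit of both libraries. Of 13 matrix and CD44 partner genes (10 tested), Ezr, the membrane-cytoskeleton linker ezrin, was lower in progenitor-like than in colonocyte-like barcodes (-2.27 ± 0.15) and its relative Msn (moesin) was higher (1.16 ± 0.25).

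Myc, a transcription factor of cell growth and a Wnt target, was at 85.1 and 42.1 CPM in progenitor-like, 108 and 68.6 in cycling-like and 73.5 and 56.5 in deep crypt secretory-like barcodes. Goblet-like barcodes had 19.5 and 11.1 and colonocyte-like barcodes 3.41 and 2.18, so these 2 classes overlapped neither each other nor the crypt classes. Against colonocyte-like barcodes the log2 differences were 4.01 ± 0.40, 4.37 ± 0.40 and 4.08 ± 0.39 (adjusted p = 2.95e-16, 4.43e-18 and 2.10e-17 by edgeR). Against goblet-like barcodes they were 1.58 ± 0.32, 1.94 ± 0.33 and 1.65 ± 0.31 (adjusted p = 3.27e-05, 5.74e-07 and 1.40e-05 by edgeR). Between the crypt classes the log2 differences were 0.36 ± 0.27 (cycling-like minus progenitor-like) and -0.07 ± 0.26 (progenitor-like minus deep crypt secretory-like), with adjusted p = 0.594 and 0.93 by edgeR.

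Most listed partners of MYC and growth genes that it drives were higher in progenitor-like barcodes, while members of the MAX network moved in both directions. Of all genes tested, 13.6% were higher and 15.5% lower in progenitor-like than in colonocyte-like barcodes. Of 23 listed, all tested, 17 were higher and 4 lower in that comparison, with a list median of 1.84 on the log2 scale against -0.04 for all genes. The highest were Cdk4, a G1 kinase (3.78 ± 0.27), Ppan, a ribosome assembly factor (3.55 ± 0.81), and Srm, spermidine synthase (3.55 ± 0.40). Mxd1, an antagonist of MYC, was at 214 and 241 CPM in progenitor-like, 25.4 and 35.8 in cycling-like and 51.7 and 58.2 in deep crypt secretory-like barcodes. It was at 679.9 and 657 in goblet-like and at 1305 and 1029 in colonocyte-like barcodes. The progenitor-like class was thus below colonocyte-like barcodes by log2 fold change (-2.82 ± 0.16), while exceeding the deep crypt secretory-like class by 2.00 ± 0.20. Max and Mxi1 were also lower in progenitor-like than in colonocyte-like barcodes (-2.39 ± 0.18 and -1.86 ± 0.27). Mxd3, Mxd4 and Mga of the same network, named after their values were seen, were higher there (2.97 ± 1.17, 0.91 ± 0.21 and 0.84 ± 0.31). Mxd3 had 61 UMIs in all, at 2.69 and 7.66 CPM in progenitor-like and 0.426 and 0 in colonocyte-like barcodes. Its highest levels of the 5 classes were in cycling-like barcodes, at 40.6 and 35.8 CPM. The markers that named the progenitor-like class include growth genes such as Gnl3 and Nhp2, so this list is not independent of the class.

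**Figure D4:**
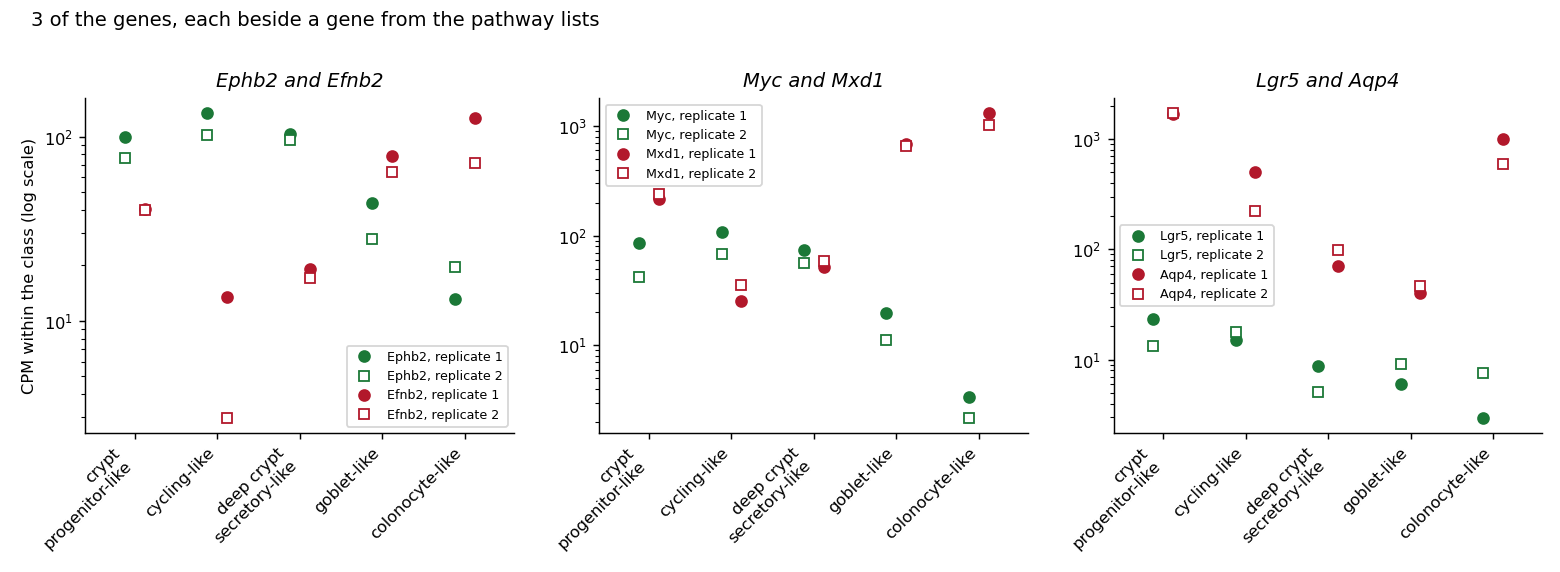
CPM within the class (log axes) of Ephb2 beside its ligand gene Efnb2, Myc beside Mxd1, and Lgr5 beside Aqp4, in 5 classes and 2 libraries. Efnb2 and Mxd1 are highest in goblet-like and colonocyte-like barcodes, where Ephb2 and Myc are lowest, and Aqp4 at 1003 and 596 in colonocyte-like barcodes does not follow Lgr5.

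Within the crypt, few members separated the classes. Progenitor-like barcodes exceeded deep crypt secretory-like ones in Ascl2 and Cd44 and were below them in Sox9, where 5.72% of all genes were called higher and 7.08% lower. Cycling-like barcodes exceeded progenitor-like ones in Cd44 alone (0.80 ± 0.25, adjusted p = 0.0269 by edgeR), where 2.71% of all genes were called higher. This Cd44 call was lost under 6 alternatives (adjusted p = 0.0615 to 0.937), and with barcodes over 20% mitochondrial UMIs left out the difference was 0.11. For Lgr5 the cycling-like to progenitor-like ratio was 0.804, with a counting interval of 0.406 to 1.52.

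The progenitor-like class was not uniform. Clustering at resolution 2, also without the members, placed 81 of its 275 barcodes in a cluster led by the DNA replication genes Mcm4, Mcm5, Mcm6 and Pcna, and 158 in a cluster led by Reg3b, Csrp2, Gsdmc and Tfrc. Ascl2 had 12 and 6 UMIs in the replication-led part, 31.9 and 41.2 CPM, and 0 in the Reg3b-led part of either library. A count of 0 in the 120 barcodes of replicate 1 and the 38 of replicate 2 allows up to 5.04 and 10.6 CPM (3 UMIs per library, counting error only). Smoc2 was at 154 and 109.8 CPM in the replication-led part, against 13.4 and 10.6 in the Reg3b-led part. Cd44 was at 213 and 172 against 45.4 and 24.6, and Myc at 183 and 109.8 against 42.0 and 21.1. In both libraries the replication-led part was higher for all 10 members, and the ranges did not overlap except for Lrig1, at 85.1 and 34.3 against 48.7 and 14.1. The replication-led part was also deeper, with medians of 5590 and 7771 UMIs per barcode against 4681.5 and 6718, and its 17 barcodes in replicate 2 make those values coarse. The whole Reg3b-led cluster had a median of 8.66% mitochondrial UMIs, against 4.82% in the whole replication-led cluster. Its leading gene Gsdmc was one of the colonocyte markers. No test was made between the parts.

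At resolution 2 the class names were redrawn, and comparisons with the progenitor-like class changed. The replication-led cluster alone (82 barcodes) was named progenitor-like. The Reg3b-led cluster, with 158 barcodes of the former class, stayed unnamed, and 28 more lay in a cluster named colonocyte-like. The deep crypt secretory-like class grew to 365 and 96 barcodes, taking in 110 that had been goblet-like, and the goblet-like class shrank to 178 and 54. Which of these changes moved the calls was not tested. Against the deep crypt secretory-like class of that clustering, 7 members were called, all higher: Lgr5 (2.39, adjusted p = 0.000547), Smoc2 (1.45), Ephb3 (1.57), Axin2 (1.19), Myc (1.25, adjusted p = 0.000206), Ascl2 and Cd44. The count of all genes called in this comparison, in either direction, stayed within 1.5 times of the 1016 called at resolution 1. Its split by direction at resolution 2 is not given here. Sox9 did not pass the test (0.18, adjusted p = 0.728), and Cd44 was no longer higher in cycling-like barcodes (-0.21, adjusted p = 0.897). Smoc2 exceeded goblet-like barcodes by 1.64 (adjusted p = 1.88e-05). All adjusted p-values in this paragraph are from edgeR.

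**Figure D5:**
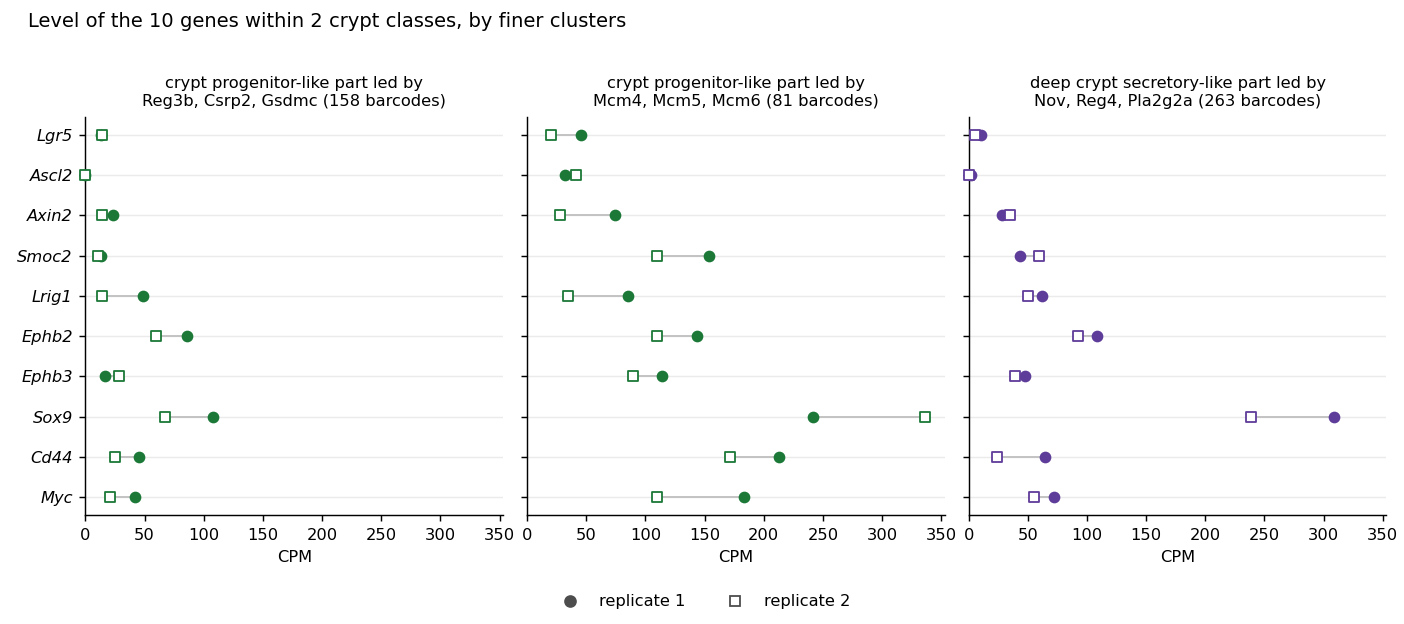
CPM of each gene in finer clusters within the progenitor-like and deep crypt secretory-like classes that hold at least 10 barcodes in each library (circles replicate 1, squares replicate 2). Every gene is higher in the part led by Mcm4, Mcm5 and Mcm6 than in the part led by Reg3b, Csrp2 and Gsdmc in the same library; Cd44 is at 213 and 172 against 45.4 and 24.6.

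The goblet-like class split as well. At resolution 2, its 229 barcodes in a cluster led by Clca1, Zg16 and Fcgbp had Sox9 at 10.1 and 9.47 CPM, while 110 barcodes in a cluster led by Best2, Mptx1, Scin and Ramp1 had Sox9 at 61.7 and 89.9. Ephb2 was at 33.8 and 23.7 in the first and 58.4 and 44.9 in the second, and Lrig1 at 5.63 and 7.10 against 21.7 and 35.9. Smoc2 was at 30.4 and 23.7 against 26.7 and 71.9, which overlapped. The second part held 16 barcodes in replicate 2. Its cluster also held 82 barcodes of the deep crypt secretory-like class, and by its 4 leading deep crypt secretory markers it took that name at resolution 2.

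More than 1 member was found in a larger share of barcodes in the 3 crypt classes than in goblet-like or colonocyte-like barcodes. With each barcode thinned to 2000 UMIs, at least 2 of the 10 genes were found in 24.6% and 14.1% of progenitor-like, 38.4% and 42.1% of cycling-like and 31.2% and 21.1% of deep crypt secretory-like barcodes. The shares were 2.50% and 1.56% in goblet-like and 0.551% and 0.877% in colonocyte-like barcodes. Of the T cell-like barcodes deep enough, 2 of 10 and 1 of 4 held at least 2, and tuft-like and unnamed barcodes were not counted. Thinning left out 21 and 3 progenitor-like barcodes as too shallow. Sox9, the most often detected, was found at that depth in 36.5% of deep crypt secretory-like, 33.9% of cycling-like and 19.9% of progenitor-like barcodes, against 4.61% of goblet-like and 5.45% of colonocyte-like ones. Without thinning, the Sox9 shares were 64.2%, 63.2%, 38.5%, 13.2% and 15.3%, in that order.

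Among the progenitor-like barcodes of replicate 1, 18 held an Lgr5 UMI, and 10 of these also held Smoc2, against 23 of the other 190. Myc was found in 11 of the 18 and 40 of the 190, and Ascl2 in 3 and 6. Replicate 2 had 6 Lgr5 barcodes, of which 1 held Smoc2, 0 Myc and 0 Ascl2, against 13, 12 and 4 of the other 61. Cd44 was found in 10 of the 18 and 44 of the 190 in replicate 1, and in 3 of the 6 and 12 of the 61 in replicate 2. Axin2 was found in 6 and 28, and in 2 and 6. The libraries thus differed in direction for Smoc2, Myc and Ascl2 and had the same direction for Cd44 and Axin2, on few barcodes and with no test. The Lgr5 barcodes of replicate 1 were also deeper, at a median of 6072.5 UMIs against 4876.5.

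Outside these classes, Cd44 and Myc were found in T cell-like barcodes, with 14 and 2 UMIs of Cd44 (168 and 148 CPM) and 11 and 1 of Myc. CD44 is a known lymphocyte adhesion receptor. No UMI of Lgr5, Ascl2, Lrig1 or Ephb3 was found in them. The 13 tuft-like barcodes held 8 and 6 UMIs of Sox9, 448 CPM over both libraries, in 8 barcodes. The unnamed barcodes, 27.6% of those kept, held between 5.41% (Myc) and 16.5% (Ephb3) of the UMIs of a member, against 12.1% of all UMIs.

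For the 9 members with at least 100 UMIs before doublets were removed (all but Ascl2), the genes of most similar level over the 10 sums of class and library were chosen by Pearson's r of log2 levels (pseudocount 10) among 5147 genes with at least 100 UMIs. For Lgr5 they were Tmem173 and Pla2g5 (r of 0.93 for both), and for Axin2, Pabpn1 and Eri1 (0.99 and 0.98). Smoc2 was closest to Cfdp1 and Rdh11 (0.96 for both), and Lrig1 to Ccdc59 and Ttll5 (0.98 for both). Ephb2 was closest to Carnmt1 and Sfxn1 (0.99 for both), Ephb3 to Eif3f and Tmem33 (0.98 for both) and Sox9 to Timm10b and Gas5 (0.98 for both). Cd44 was closest to Cenpw, a centromere protein gene, and Gsr, glutathione reductase (0.99 for both), and Myc to Ptbp1, a splicing regulator, and Fkbp4, an immunophilin (0.99 for both). The sums share 2 libraries and differ in depth, so these values only describe them.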

How the data were processed

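UMI counts per gene and barcode were deposited by the authors as 1 table per library. The submitters' processing notes name the builds GRCm38 and GRCh38; no source used here names the aligner, the counting tool or an earlier filter on barcodes. All barcodes had at least 1001 UMIs. The members and gene lists were chosen with earlier results of these data known. Genes were divided by a hash of the symbol into clustering genes (markers included) and readout genes (members and lists included). Barcodes were scored against simulated doublets (highest 5% removed), and clustered by Leiden at resolution 1 (15 neighbours, 30 components). A cluster took a class name only with at least 2 of its markers among its 15 leading genes. This rule replaced a first version after the clusters, and the members' counts in them, had been seen, and before any test between classes. UMI sums per class and library (10 sums of 179115 to 1225016 readout UMIs) were fitted with edgeR 4.0.16 (R 4.3.3; TMM, library as a block, genes with at least 20 UMIs, 4 residual degrees of freedom). The fit shares its estimate of the spread over genes (common dispersion 0.0115), so p-values do not rest on the 4 residual degrees of freedom of each gene alone. Classes of the same library are paired by origin: over genes, library differences of 2 classes correlated at 0.16 to 0.28 (10 pairs). The script was tested on simulated counts. Shares have exact Clopper-Pearson 95% intervals, and count ratios exact conditional ones; intervals and limits for counts of 0 (3 barcodes) cover counting error only. List genes were named by the largest log2 fold change past the threshold, at most 3 in each direction per comparison. Alternatives were DESeq2 1.42.0, other scalings, filters and resolutions, no library block, thinned sums, and each library alone. Naming clusters from 1 leading marker was an alternative added after seeing the data.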

Additional observations from a re-analysis of the deposited data

How the results depend on the processing

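Of 994 recomputed member differences (80 per alternative where all classes existed), 915 counted as unchanged. Among these, tested differences kept their side of the threshold, and those not called could turn. Values of 1 library alone moved by no more than the SD between the libraries. That rule is easily met, since the fit of both libraries usually lies between them. Lgr5 (progenitor-like minus colonocyte-like) counted as unchanged at 0.45 in replicate 2 alone, against 1.68. Of the rest, 21 calls were lost and 18 gained with the direction kept, and 3 differences turned. A further 37 values of 1 library alone moved by more than that SD. Among differences called with or without the alternative, clusters at resolution 2 alone turned a direction: Sox9 (progenitor-like minus deep crypt secretory-like) 0.18, Myc (the same) 1.25 and Cd44 (cycling-like minus progenitor-like) -0.21. The Sox9 and Cd44 calls were lost and Myc was gained. Of 3 members called between progenitor-like and deep crypt secretory-like barcodes, 1 was called without the replicate block and 7 at resolution 2. Of the 1 called between cycling-like and progenitor-like barcodes, 0 were called without the replicate block, without the count filter, without the doublet filter, without barcodes over 20% mitochondrial UMIs and with DESeq2, and 2 with library totals only. Of 8 called between progenitor-like and goblet-like barcodes, DESeq2 called 5. Causes were not tested. DESeq2 gave no adjusted p for 6 member differences. At resolution 0.5 the progenitor-like class merged into the cycling-like one, so its comparisons have no value. Each library alone has no test. Naming clusters from 1 leading marker, added after seeing the data, changed no member's call.

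Counts of all genes called moved by over 1.5 times as follows. Without the replicate block they fell from 1717 to 1027 (progenitor-like against goblet-like), 1908 to 1263 (cycling-like against goblet-like), 1164 to 530 (deep crypt secretory-like against goblet-like), 1016 to 506 (progenitor-like against deep crypt secretory-like) and 506 to 168 (cycling-like against progenitor-like). DESeq2 called 1033, 1241, 679, 587 and 312 in that order, and 1470 against 2312 for progenitor-like against colonocyte-like. Cycling-like against progenitor-like gave 85 at resolution 2 and 325 without high-mitochondrial barcodes, and deep crypt secretory-like against goblet-like 769 with thinned sums. With library totals only, the share of calls that were higher rose from 48.1% to 73.1% (cycling-like against colonocyte-like), 52.1% to 73.3% (deep crypt secretory-like against colonocyte-like), 46.7% to 73.1% (progenitor-like against colonocyte-like), 43.8% to 63.5% (cycling-like against goblet-like), 43.6% to 62.1% (deep crypt secretory-like against goblet-like), 43.7% to 54.7% (progenitor-like against goblet-like) and 42.5% to 61.4% (cycling-like against progenitor-like). Lgr5 and Ascl2, with 99 and 49 UMIs, are limited by depth in every class.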
